A study of Mus musculus with 2 samples.

Results

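The venous endothelial cells of the mouse lung were described from 2 droplet 3′ single-cell RNA libraries, in which they were chosen by the genes they expressed. Of 19951 cells kept, 287 were taken as venous, 196 of 10842 in the library of wild-type (WT) C57B6/J mice and 91 of 9109 in the library labelled Plaur KO, called KO-labelled here. Kept cells had 500 genes or more and no more than 15% of their UMIs (unique molecular identifiers, which count captured transcripts) from mitochondrial genes. It was taken as venous with at least 2 of 6 endothelial genes (Cldn5, Cdh5, Ptprb, Calcrl, Ramp2, Pecam1) and at least 3 of 6 venous genes (Vwf, Slc6a2, Selp, Ackr1, Bst1, Prss23) detected. It could hold at most 2 of the arterial genes Gja5, Gja4, Bmx, Dkk2, Sox17 and Hey1, at most 1 of the lymphatic genes Prox1, Mmrn1 and Reln, and at most 1 of Lamp3, Slc34a2, Dcn, Col1a2 and Ptprc, which mark other lineages.

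The mice of both genotypes had been sensitised with LPS together with ovalbumin (LPS/OVA) on days 0 and 7 and were given OVA as an aerosol on day 14. Their lungs were digested and sorted for CD45.2-negative cells, a gate that removes most blood-derived cells, although one label of both libraries reads total lung cell lysate. The design names 8 WT and 8 Plaur-/- mice, the second lacking the urokinase receptor uPAR, and how many mice, and of what age, went into each library is not given in the sources used here. Neither library came from unsensitised mice, so both genotypes share the allergen treatment. With 1 library per genotype there was no replicate and no test: genotype, library and mouse cannot be told apart, and every 95% interval given here is exact and covers counting error only.

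Veins and venules carry blood out of the lung tissue and are a site at which leukocytes can slow down, adhere and leave the bloodstream. Their endothelium stores P-selectin (Selp) and von Willebrand factor (Vwf) in Weibel-Palade bodies, and in inflammation adds E-selectin (Sele) and the adhesion proteins Vcam1 and Icam1, whose transcription is driven by NF-kB. The transcription factor Nr2f2 is known to hold venous identity against the arterial Notch programme, and the noradrenaline transporter Slc6a2 marks the larger veins of the mouse lung.

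The 2 libraries held 57028943 and 51529241 UMIs, with a median of 4997 and 5570 UMIs per kept cell, and the venous cells were shallower, with a median of 2016 UMIs and 1200 genes in the WT library and 2156 UMIs and 1275 genes in the KO-labelled one. Of the barcodes, 30 occurred in both libraries, and no venous cell of one shared its barcode with a venous cell of the other. RNA of other cells was present in the droplets to a different degree: a UMI of the club-cell gene Scgb1a1 was found in 97.4% of WT and 30.8% of KO-labelled venous cells, and of the surfactant gene Sftpc in 80.1% and 89.0%. In 10 WT and 11 KO-labelled venous cells, more than 10 UMIs of the markers of 1 other cell type, or at least 3 aerocyte genes, were present. These mixed cells, 5 and 1 of which were marked as doublets by Scrublet, held 14.4% and 26.6% of all venous UMIs, and calls that are lost or gained without them are given for the listed genes named.

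**Figure D1:**
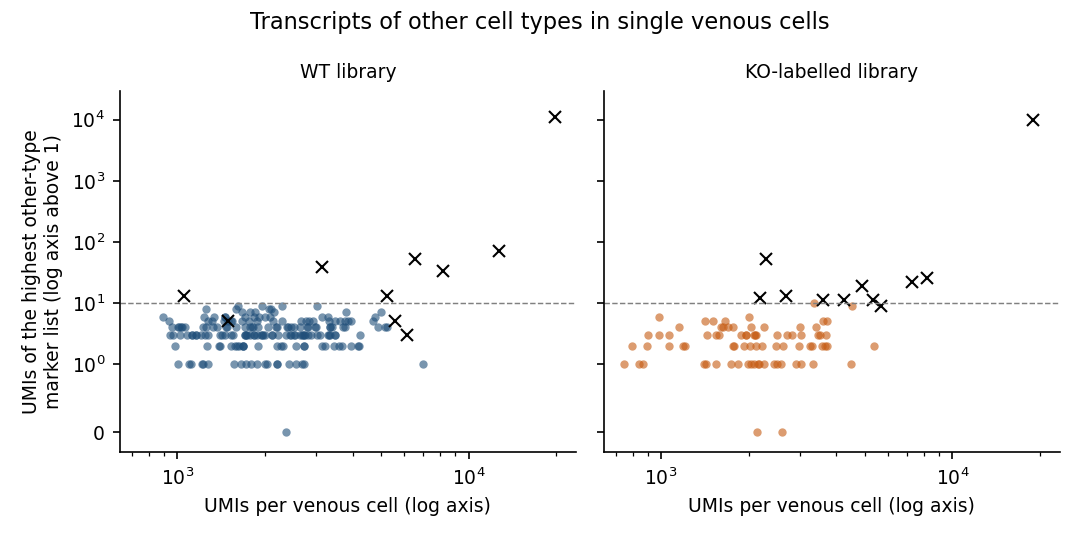
UMIs of the marker list of another cell type (the highest of airway secretory, alveolar type 2, ciliated, fibroblast, mural and mesothelial lists) against total UMIs, 1 point per venous cell, 196 in the WT and 91 in the KO-labelled library; crosses are the 10 and 11 mixed cells and the dashed line is at 10 UMIs. In each library 1 cell with 19837 or 18870 UMIs stands far above the others, and crosses under the line were set apart by their aerocyte genes.

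At least 3 of the 6 venous genes had to be detected, so high detection of them follows from the rule. Vwf was detected in 99.0% of WT and 98.9% of KO-labelled venous cells, Slc6a2 in 86.7% and 86.8%, Prss23, a secreted protease, in 88.8% and 91.2%, and Bst1, a surface enzyme, in 46.9% and 57.1%. Selp was found in 51.5% and 37.4%, and Ackr1, a chemokine scavenger of venules, in 13.8% and 6.59%. In non-endothelial cells, at median depths of 5693 and 5985 UMIs, Slc6a2 was seen in 0.434% and 0.133%, Selp in 0.374% and 0.106%, Ackr1 in 0.591% and 0.146% and Vwf in 1.12% and 0.385%. Bst1 (6.54% and 2.31%) and Prss23 (12.7% and 4.15%) were seen more often there, and Vwf was seen in 14.8% and 19.1% of general capillary cells. Since these genes chose the cells, their levels are a description. Platelet markers (Pf4, Ppbp, Gp9, Itga2b, Gp1bb), cells that also hold Vwf and Selp, were at 0 UMIs in all venous cells of both libraries, as were the erythroid markers. The leukocyte list summed to 6 and 3 UMIs.

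The lower limit of the rule fell within a continuum. Of the WT venous cells, 84, 61, 44 and 7 held 3, 4, 5 and 6 of the venous genes, and of the KO-labelled ones 36, 41, 12 and 2. Just outside the rule lay 71 WT and 48 KO-labelled endothelial cells with 2 venous genes and no more than 2 arterial genes. In cells with 2 venous genes Nr2f2 stood at 108 and 262 counts per 1000000 UMIs (CPM), in those with 3 at 356 and 414 CPM. Gpihbp1, which anchors lipoprotein lipase on capillaries, stood at 529 and 495 CPM with 2 venous genes and at 341 and 548 CPM with 3. A further 34 WT and 13 KO-labelled cells with at least 3 venous genes were left out for more than 1 gene of another lineage, and 1 and 2 for arterial genes.

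Venous cells made up 1.81% (1.57 to 2.08) of kept WT cells and 0.999% (0.805 to 1.23) of kept KO-labelled cells, a log2 ratio of -0.86 (-1.23 to -0.49). Among cells with at least 2 endothelial genes, 2191 and 1392, they were 8.95% (7.78 to 10.2) and 6.54% (5.30 to 7.97), a log2 ratio of -0.45 (-0.83 to -0.09). The share was thus lower in the KO-labelled library on both denominators beyond counting error. Detection of Selp and Ackr1, which are among the genes that choose the cells, was also lower in the KO-labelled library, and its part in the share was not tested. The digestion and the sort also act on such shares, and their part was not tested.

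Other endothelial classes were taken by gene rules that allowed at most 1 of the 6 venous genes. They were 876 and 545 general capillary cells, 524 and 359 aerocytes (capillary cells of the gas-exchange surface) and 20 and 23 arterial cells. The cells with 2 venous genes described above were thus left out of the comparison. They held Vcam1 at 2813 and 2290 CPM and Cpe at 298 and 223 CPM. Against the other classes, venous cells also held higher levels of genes outside the rule. Among 1657 genes outside the rule seen in at least 20% of venous cells of both libraries, 54 were at least 2-fold above each of the other classes in both libraries (with 20 CPM added). Nr2f2 was at 346 and 412 CPM in WT and KO-labelled venous cells and at 12.2 and 6.26 CPM in general capillary cells. Fabp4, a fatty-acid carrier, led the list at 789 and 547 CPM against 23.7 and 7.51 CPM in general capillary cells, and it was listed at 0 in aerocytes and arterial cells.

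Lipid-mediator genes were among the 15 highest. Ptgs2, the inducible cyclooxygenase, stood at 568 and 339 CPM in venous cells and at 11.5 and 1.25 CPM in general capillary cells. Pla2g4a, the phospholipase that frees arachidonic acid for it, stood at 217 and 196 CPM against 9.47 and 0 CPM. Both enzymes were thus concentrated in venous cells, although Ptgs2 was also seen in 18.6% and 15.7% of non-endothelial cells. Ch25h, which makes 25-hydroxycholesterol, stood at 613 and 396 CPM against 33.1 and 33.8 CPM.

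The most abundant gene of this group was Vcam1, the ligand by which eosinophils and lymphocytes adhere through VLA-4. It reached 4500 and 2824 CPM in venous cells, against 187 and 156 CPM in general capillary cells, 156 and 95 CPM in aerocytes and 152 and 452 CPM in arterial cells. Other members were Cpe, a peptide-processing enzyme (398 and 306 CPM against 0.676 and 1.25 CPM in general capillary cells), Lrg1, a secreted glycoprotein of inflamed endothelium (912 and 698 against 48.0 and 63.9 CPM), and the protease inhibitor Serpina3g (1033 and 1114 against 135 and 165 CPM). Tmem45a, Fgl2, Pcdh7, Dnm3, Zfpm2 and Chn2 completed the 15.

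**Figure D2:**
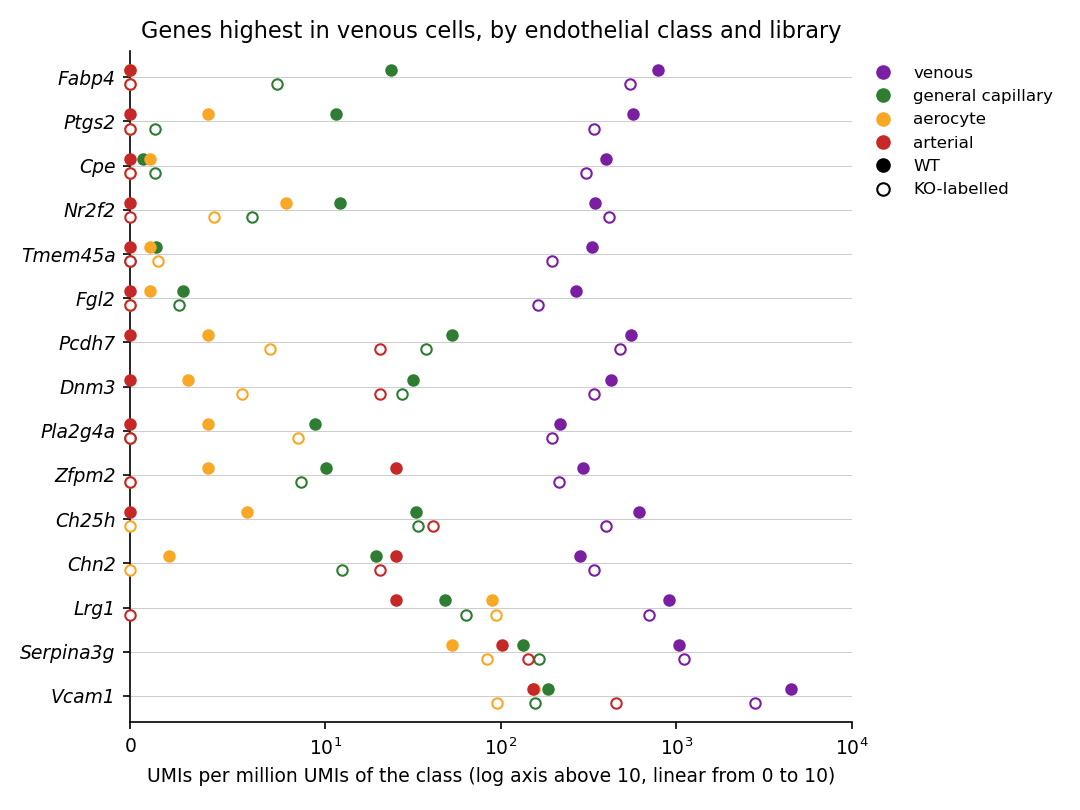
Level of the 15 genes outside the rule that stood farthest above the other endothelial classes, in CPM of each class (x axis, logarithmic above 10 and linear below), with filled points for the WT and open points for the KO-labelled library. In both libraries the venous point lies to the right of the other 3 classes for each gene, for Vcam1 at 4500 and 2824; points at 0 overlap, and arterial points come from 20 and 23 cells.

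In the opposite direction, 67 genes were at least 2-fold lower in venous cells than in both capillary classes in both libraries. They included arterial and tip-cell genes of the Notch and ephrin systems: Dll4, a Notch ligand, at 8.20 and 4.08 CPM in venous and 110 and 118 CPM in general capillary cells, and Efnb2, the arterial partner of the venous receptor Ephb4, at 34.9 and 20.4 against 385 and 474 CPM. Pdgfb, which recruits pericytes, stood at 24.6 and 24.5 CPM against 193 and 227 CPM. Ephb4 itself was close to its capillary level, at 154 and 208 CPM in venous and 145 and 194 CPM in general capillary cells.

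Venous cells were not uniform. Within each library, levels per cell (log2 of 1 plus UMIs per 10000) were correlated with Selp over the 1561 genes seen in at least 20% of cells of both libraries. These are descriptions over 196 and 91 cells that share a library, and depth differs among the cells. Vcam1 followed Selp most closely, with r = 0.71 in the WT and 0.72 in the KO-labelled library. Ch25h (0.56 and 0.65), Serpina3g (0.54 and 0.62), Mctp1 (0.54 and 0.41) and the interleukin-1 receptor Il1r1 (0.38 and 0.55) followed.

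Running against Selp were Hpgd, the enzyme that inactivates prostaglandins (r = -0.56 and -0.51), Tmem100, a BMP9 and ALK1 target of quiescent endothelium (-0.51 and -0.56), Clec14a (-0.39 and -0.58) and thrombomodulin, Thbd (-0.40 and -0.38). Slc6a2 (-0.37 and -0.40) was also on this side, but the rule ties it to Selp, because a cell without Selp needed 3 of the remaining 5 venous genes. Without the mixed cells r for Vcam1 was 0.71 and 0.74 and for Hpgd -0.57 and -0.53.

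**Figure D3:**
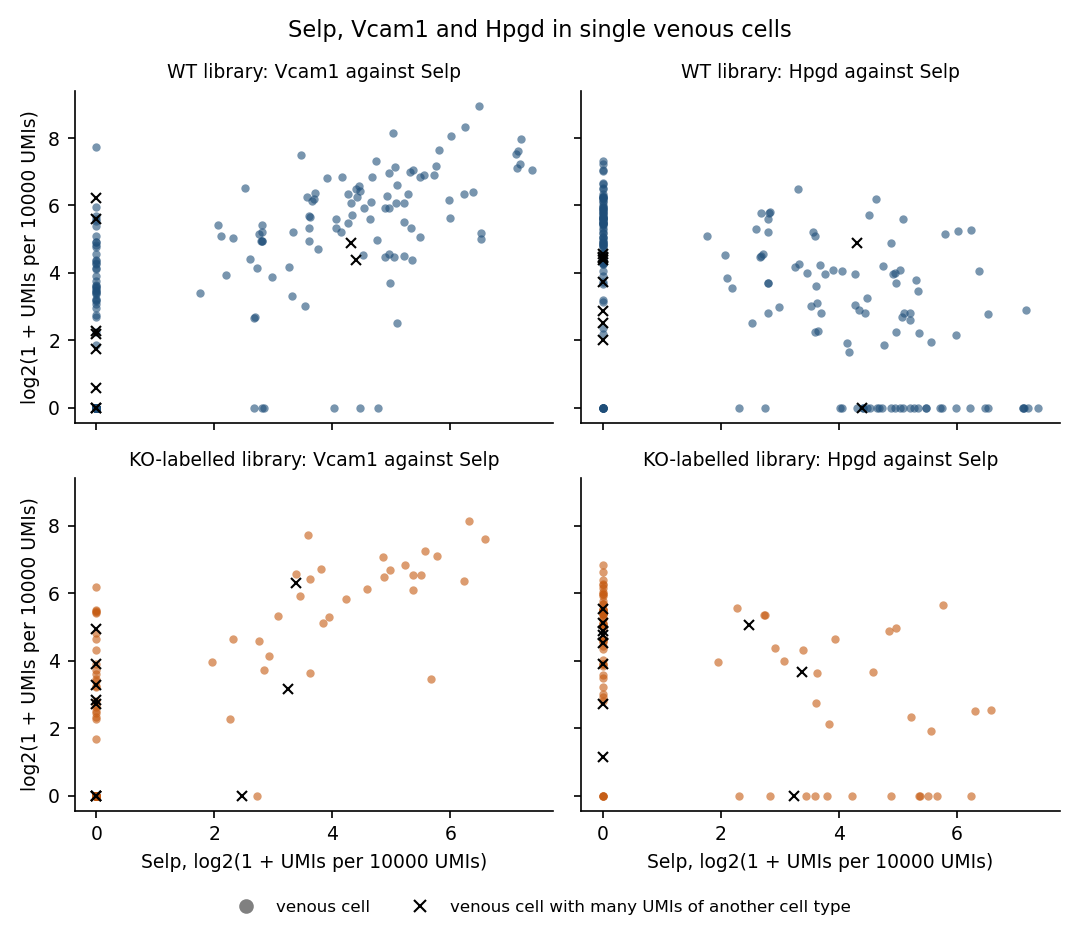
Vcam1 (left) and Hpgd (right) against Selp in single venous cells of the WT (top, 196 cells) and KO-labelled (bottom, 91 cells) library, each as log2 of 1 plus UMIs per 10000 UMIs; crosses are mixed cells. Vcam1 rises with Selp in both libraries (r = 0.71 and 0.72) and Hpgd is highest at low Selp (r = -0.56 and -0.51); cells at 0 had no UMI of the gene.

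Dividing the cells by a Selp UMI gave the size of these patterns. In the WT library 101 cells with Selp had a median of 2354 UMIs and 95 without it 1743; in the KO-labelled library 34 cells with Selp had 2175 and 57 without it 2140, so depth differed between the parts in the WT library. Vcam1 stood at 7485 CPM in WT cells with Selp and 1138 CPM in those without it, and at 5828 and 764 CPM in the KO-labelled library. Hpgd went the other way, with 1161 and 3243 CPM in the WT and 923 and 3344 CPM in the KO-labelled library. Sele was found almost wholly beside Selp, at 542 against 21.8 CPM in the WT library and at 271 CPM against 0 in the KO-labelled one. Nr2f2 was present in both parts (372 and 318 CPM, and 361 and 447 CPM), and so was Vwf (3657 and 3052 CPM, and 3180 and 2505 CPM).

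Genes that followed Fabp4, which was seen in 27.0% and 20.9% of venous cells, overlapped with those that followed Selp. Fabp4 was at 1382 CPM in WT cells with Selp and 122 CPM in those without it, and at 1013 and 227 CPM in the KO-labelled library. Pcdh7, Mctp1, Sorbs2 and Ptgs2 ran with both genes, and Tmem100, Hpgd, Cldn5 and Cdk14 against both. Cldn5, like Selp, is a gene of the rule that chose the cells, and the part of the rule in its values was not tested. Fabp4 ran with Mgp, the matrix Gla protein of large vessels (r = 0.73 and 0.61), Pcdh7 (0.60 and 0.56), Cpe (0.50 and 0.49), Ctsh (0.44 and 0.70) and Cytl1 (0.44 and 0.54), and against Sema3c (-0.42 and -0.47), which the general capillary list also holds. Mgp was at 1821 and 1351 CPM in all, with 24.1% and 28.7% of its UMIs in 1 cell of each library. Cells with Fabp4 were deeper, with a median of 2874 and 2914 UMIs, than those without it, with 1834 and 2067, and the part of depth in these correlations was not tested.

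The 2 libraries were then set side by side. For each gene, UMIs were summed over the venous cells of a library, 487770 UMIs in the WT and 245028 in the KO-labelled one, and a gene was called higher or lower when the KO-labelled library differed from the WT library past 1.5-fold and its counting interval excluded equality. Of 5738 genes outside the rule with at least 20 UMIs in all, 210 (3.66%) were called higher and 258 (4.5%) lower, and the median log2 ratio was -0.01. Without the mixed cells 160 were called higher and 209 lower, with a median of 0.01. Without the genes that were over 5 times higher in non-endothelial cells, 181 of 5623 (3.22%) were higher and 236 (4.2%) lower. These counts describe 2 libraries and are not a count of genes changed by the genotype.

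Plaur itself, which encodes the urokinase receptor (chr7:24462484-24475968 in GRCm38), was not absent from the KO-labelled library. It was counted with 39 UMIs in 24 WT cells and 33 UMIs in 24 KO-labelled cells, 80.0 and 135 CPM, a log2 ratio of 0.75 (0.04 to 1.46). Thinned to 1000 UMIs per cell, the ratio was -0.09. A 3′ count does not show which part of a gene was deleted, so these counts do not check the genotype label. In general capillary cells the ratio had the same sign, 0.82, and in aerocytes, with 424 and 167 UMIs, the opposite one, -0.82. Of the other plasminogen genes, Anxa2 and S100a10, which bind plasminogen at the cell surface as a pair, were at 588 and 714 CPM and 816 and 935 CPM, and neither passed the threshold. Serpine2, an inhibitor of urokinase and thrombin, was lower, at 39 and 6 UMIs (log2 ratio -1.71, -3.24 to -0.46), but not without the mixed cells (-1.16). Plau and Plat were at 1 and 3 and at 8 and 2 UMIs, too few to compare.

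Genes that capture leukocytes leaned to lower levels in the KO-labelled library. Of 14 genes of the leukocyte adhesion list measured outside the rule, 0 were called higher and 2 lower, against 3.66% and 4.5% overall. Of these 14, 12 lay below 0, against 3059 of all 5738 genes, with a median log2 ratio of -0.26. Vcam1 (chr3:116109949-116129688) had 2195 UMIs in 139 WT cells and 692 UMIs in 60 KO-labelled cells, 4500 and 2824 CPM, a log2 ratio of -0.67 (-0.80 to -0.55). Sele (chr1:164048234-164057677) had 145 and 27 UMIs in 36 and 13 cells, 297 and 110 CPM, a log2 ratio of -1.43 (-2.08 to -0.83). Icam1 stood at 738 and 518 CPM, a log2 ratio of -0.51 that did not reach 1.5-fold. Without the mixed cells the median of the list was -0.13, Sele remained called at -1.26, and Vcam1, at -0.55, was under 1.5-fold.

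Among the genes of the rule, Selp was at 1679 and 869 CPM and Ackr1 at 283 and 81.6 CPM, while Slc6a2 (1478 and 1616 CPM) and Prss23 (1191 and 1179 CPM) were close. A smaller share of venous cells with Selp, 37.4% against 51.5% (26.5% against 46.3% after thinning to 1000 UMIs, which left out 8 and 6 cells), accompanied the difference in Vcam1. Inside the cells with a Selp UMI Vcam1 had a log2 ratio of -0.36 (-0.50 to -0.23) and inside those without one -0.58 (-0.91 to -0.25). The log2 ratio of Vcam1 thus lay below 0 within both parts, though under 1.5-fold among cells with Selp. In the KO-labelled part with Selp, 1 mixed cell held 18870 of 99691 UMIs, which lowers the CPM of other genes there. In the WT part without Selp, 1 mixed cell held 19837 of 229391 UMIs. The ratios within the parts include the mixed cells, and how far these cells set them was not tested. Sele differed by -1.0 (-1.65 to -0.40) inside the cells with Selp. Icam1 differed there by -0.63 (-1.04 to -0.24), and its interval included equality in the rest, at 0.10 (-0.40 to 0.59). Hpgd was close in both parts, at -0.33 (-0.68 to 0.01) and 0.04 (-0.12 to 0.21), and Tmem100, a gene of the cells without Selp, was at 732 and 1177 CPM there.

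NF-kB target genes were the list with the most members called lower. Of 18 measured, 7 were lower and 0 higher, against 4.5% and 3.66% of all genes, and 14 lay below 0, with a median log2 ratio of -0.66; of all 5738 genes 3059 lay below 0. The transcription factor subunit Nfkb1 was at 197 and 110 CPM (-0.84, -1.51 to -0.21), the co-regulator Bcl3 at 125 and 61.2 CPM (-1.03, -1.95 to -0.20), the atypical inhibitor Nfkbiz at 127 and 73.5 CPM (-0.79, -1.64 to -0.01) and the interferon regulatory factor Irf1 at 297 and 163 CPM (-0.86, -1.41 to -0.35). Vcam1 and Sele are also in this list. The seventh, the chemokine Ccl2, rested on 1 WT cell that gave 93.0% of its 57 UMIs, and without the mixed cells its log2 ratio was 1.22. Nfkbia, an inhibitor that NF-kB induces, was at 877 and 881 CPM (0.01), and Birc3 at 75.9 and 118 CPM (0.64, -0.11 to 1.38). Without the mixed cells 5 were called lower and the median was -0.53.

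The promoters of 3 of the genes that were lower together are shown because NF-kB proteins bind a short sequence in the promoters of selectins and of their own regulators. They span 250 bases before and 50 after the start, from RefSeq on GRCm38.p6, in the direction of the gene, and capitals mark GGNNNTTCC or its reverse complement GGAANNNCC.
Sele, chr1:164047984-164048283, plus strand: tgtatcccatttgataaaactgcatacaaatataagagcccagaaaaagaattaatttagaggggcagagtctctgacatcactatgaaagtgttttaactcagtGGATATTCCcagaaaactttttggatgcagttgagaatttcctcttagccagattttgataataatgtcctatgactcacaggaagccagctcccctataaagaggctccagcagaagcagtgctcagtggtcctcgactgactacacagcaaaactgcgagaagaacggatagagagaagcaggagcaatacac
Selp, chr1:164115014-164115313, plus strand: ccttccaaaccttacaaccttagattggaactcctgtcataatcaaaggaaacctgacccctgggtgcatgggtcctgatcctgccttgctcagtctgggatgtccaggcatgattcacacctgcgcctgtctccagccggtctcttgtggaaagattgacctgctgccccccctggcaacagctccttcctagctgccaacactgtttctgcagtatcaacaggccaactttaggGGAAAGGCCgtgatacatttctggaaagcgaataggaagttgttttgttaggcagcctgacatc
Bcl3, chr7:19822706-19823005, minus strand: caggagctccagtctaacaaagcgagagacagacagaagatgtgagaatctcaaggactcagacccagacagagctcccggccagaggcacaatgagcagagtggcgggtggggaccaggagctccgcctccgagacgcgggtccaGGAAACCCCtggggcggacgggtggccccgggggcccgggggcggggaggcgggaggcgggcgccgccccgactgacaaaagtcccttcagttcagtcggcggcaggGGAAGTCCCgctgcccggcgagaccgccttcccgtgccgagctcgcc
Of the genes outside the rule called lower in the adhesion and NF-kB lists, Sele, Bcl3 and Irf1 were in the promoter table, and the motif was found in the first 2 and not in Irf1. Selp and Ackr1, which helped to choose the cells, also held it. It occurs in 18.5% of the 32851 promoters of the table, and so few genes show nothing about the lists. A match describes letters only, and no binding was measured. Only this motif was searched for, so Irf1 may hold another form of the sequence that NF-kB proteins bind.

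Receptors and signal carriers of cytokines showed 4 of 15 measured genes lower and 0 higher, against 4.5% and 3.66% of all genes, with a median log2 ratio of -0.29. Socs3, the feedback inhibitor of the STAT3 pathway, was at 266 and 139 CPM (-0.94, -1.53 to -0.39), Stat3 at 271 and 159 CPM (-0.77, -1.32 to -0.24), the oncostatin M receptor Osmr at 250 and 159 CPM (-0.65, -1.21 to -0.12) and the TNF receptor Tnfrsf1a at 240 and 159 CPM (-0.59, -1.15 to -0.06). Without the mixed cells the last was at -0.42 and was not called, but 4 genes of the list were again called lower, another member among them. The interleukin-4 receptor Il4ra was at 211 and 180 CPM and did not pass the threshold. Inside the cells with Selp, Socs3 differed by -1.23 and Stat3 by -0.98, and inside those without it by -0.01 and -0.15. The difference between the parts was not tested. These values include the mixed cells, 1 of 18870 UMIs in the KO-labelled part with Selp and 1 of 19837 in the WT part without it.

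Of 8 measured chemokine and cytokine genes, 2 were called lower and 0 higher, against 4.5% and 3.66% of all genes. The 2 were Ccl2 (above) and Cxcl10, which attracts Cxcr3-bearing lymphocytes. Cxcl10 had 473 UMIs in 27 WT cells and 102 in 10 KO-labelled cells, 970 and 416 CPM (-1.22, -1.54 to -0.91), and 74.5% of the KO-labelled UMIs lay in 1 cell. Il33 was at 71.8 and 40.8 CPM and Cx3cl1 at 53.3 and 28.6 CPM, with intervals that included equality, and Il33 was over 5 times higher in non-endothelial cells. The eosinophil chemokine Ccl11 was at 0 UMIs in venous cells of both libraries. The interferon-induced GTPase Iigp1 was the one gene of 16 in the interferon and MHC class I list to be called, at 1099 and 628 CPM (-0.81, -1.07 to -0.54), while B2m, H2-K1 and H2-D1 were at 0.10, 0.02 and 0.04. Isg15 was also called higher (0.84) and Gbp3 lower (-0.96) without the mixed cells. All 7 MHC class II genes lay below 0, against 3059 of all 5738 genes, with a median of -0.63. Of these 7, H2-Aa (-0.89), H2-Ab1 (-0.63) and H2-Eb1 (-0.69) were called lower, against 4.5% of all genes. H2-Eb1 was not called without the mixed cells (-0.68). The leukocyte markers, a marker list of cells that also express MHC class II, summed to 12.3 and 12.2 CPM in the same cells. The part of RNA from leukocytes or other cells in these ratios was not tested.

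**Figure D4:**
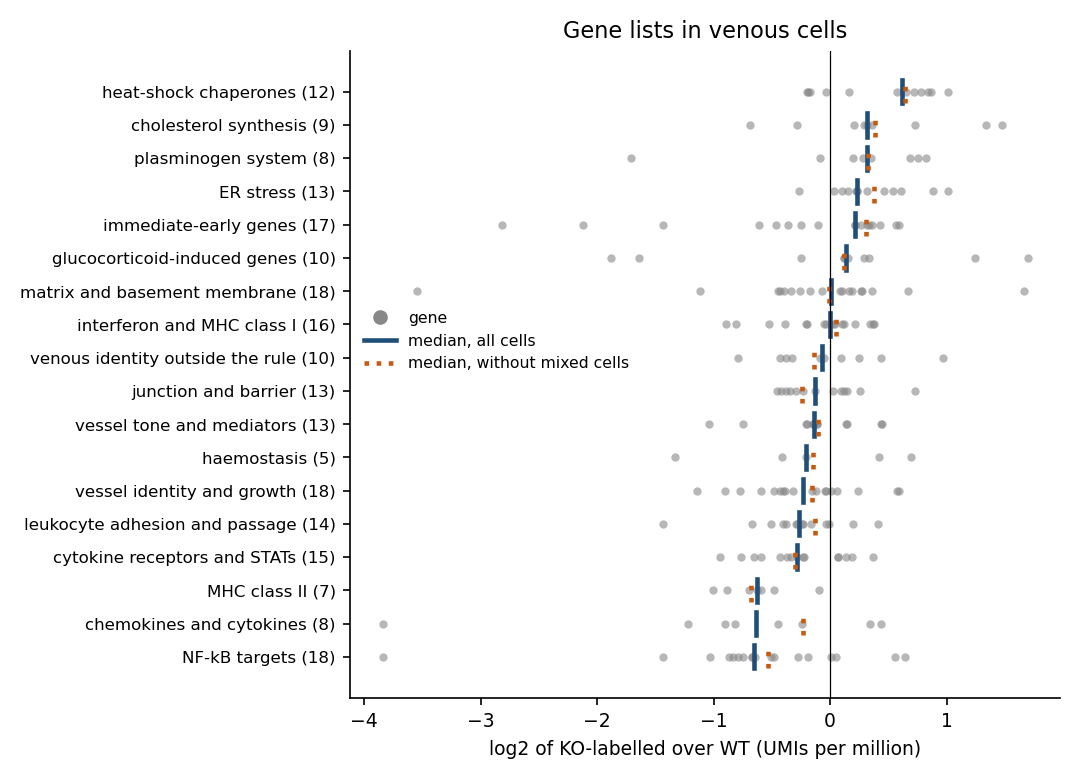
Log2 ratio of KO-labelled over WT CPM in venous cells for each measured member (grey points) of 18 gene lists, with the number measured in brackets, the median over all venous cells (solid bar) and without mixed cells (dotted bar). NF-kB targets and MHC class II genes have medians of -0.66 and -0.63 and heat-shock chaperones one of 0.61, beside -0.01 over all 5738 genes.

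On the other side were genes of protein folding. Of 12 measured heat-shock chaperones 6 were called higher in the KO-labelled library and 0 lower, against 3.66% and 4.5% of all genes. Of these 12, 8 lay above 0 and 4 below, beside 2679 of all 5738 genes above 0, and the median was 0.61. Leaving out the mixed cells left 4 called higher. The constitutive chaperone Hspa8 was at 777 and 1392 CPM (0.84, 0.63 to 1.06), its partner Dnaja1 at 322 and 649 CPM (1.01, 0.68 to 1.34), Hsp90ab1 at 1505 and 2359 CPM (0.65, 0.49 to 0.81) and the small heat-shock protein Cryab at 94.3 and 171 CPM (0.86, 0.22 to 1.5). Hspd1, the mitochondrial chaperonin, was at 0.78 (0.05 to 1.51) and was not called without the mixed cells (0.94). Hsp90aa1 was at 660 and 1086 CPM (0.72), but 56.0% of its KO-labelled UMIs lay in 1 cell, and without the mixed cells its log2 ratio was -0.04. The stress-inducible Hspa1a, at 18 and 8 UMIs, and Dnajb1, at 16 and 7, were not higher. With cells that held none of the 5 other-lineage genes the median of the list was 0.02, and without doublets 0.32; Hspa8 was then at 0.50 and 0.62, and Dnaja1 at 0.77 and 0.87.

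Genes of endoplasmic reticulum stress, a list of chaperones, folding enzymes and transcription factors, leaned the same way. Of 13 measured, 12 lay above 0 and 3 were called higher, against 2679 of all 5738 genes above 0 and 3.66% called higher. Hspa5, or BiP, the master chaperone of that compartment (chr2:34771970-34777547), had 282 and 262 UMIs in 120 and 75 cells, 578 and 1069 CPM, a log2 ratio of 0.89 (0.64 to 1.14). It was 1.01 inside cells with Selp and 0.73 inside those without. Manf was at 180 and 363 CPM (1.01, 0.57 to 1.45) and Dnajc3 at 193 and 294 CPM (0.61, 0.15 to 1.07). Xbp1 alone lay below 0, at -0.27, and Atf4 was at 0.16. In general capillary cells Hspa5 differed by 0.37 and Hspa8 by 0.97, so the direction was shared with another endothelial class.

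Immediate-early genes split. Egr1 was at 363 and 135 CPM (-1.43, -2.01 to -0.89), Junb at 642 and 420 CPM (-0.61, -0.95 to -0.28) and Nr4a1 at 28 and 2 UMIs (-2.81, -5.93 to -0.83). Egr3 had 26 WT UMIs and none in the KO-labelled library; with the floor of 3 UMIs that a count of 0 allows, its log2 ratio was at most -2.12. Dusp1, the phosphatase that ends MAP kinase signals, was higher at 201 and 302 CPM (0.59, 0.13 to 1.04), and Jun (0.42), Klf2 (0.27) and Klf4 (0.33) were above 0 without passing the threshold. In all, 1 of 17 was called higher and 4 lower, against 3.66% and 4.5% of all genes. Without the mixed cells Jun (0.62) and Ier2 (0.80) were also called higher. Among glucocorticoid-induced genes Tsc22d3 (1.25) and Zbtb16 (1.69) were higher and the metallothioneins Mt1 (-1.64) and Mt2 (-1.88) lower, all on at most 56 UMIs per library. With the mixed cells left out Zbtb16 and Mt2 had too few UMIs to be called, and Klf9 was called higher (0.63).

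Other roles showed few differences. The counts that follow stand beside 3.66% of all 5738 genes called higher and 4.5% called lower. Of 10 genes listed for venous identity outside the rule, Amigo2 was higher (117 and 228 CPM, 0.97, 0.41 to 1.53) and Adgrg6 lower (283 and 163 CPM, -0.79, -1.34 to -0.28). The other 8, Nr2f2 at 0.25 and Vegfc at -0.09 among them, were not called. Adgrg6 stood at 406.5 and 205.4 CPM in the 20 and 23 arterial cells, above its venous level, so it was not particular to venous cells. Of 13 junction and barrier genes only the plaque protein Jup was called (0.72, higher). Of 13 genes of vessel tone, Nos3 (100 and 49.0 CPM, -1.04) and Ptgs2 (568 and 339 CPM, -0.75) were lower, Nos3 not without the mixed cells (-0.94), when Ptgis was called higher (0.61). Among 18 vessel identity and growth genes only the semaphorin receptor Nrp2 was called, lower at -0.90. Thrombospondin, Thbs1, was higher (275 and 445 CPM, 0.70), with 44.9% of its KO-labelled UMIs in 1 cell; it was the one of 5 haemostasis genes to be called, joined without the mixed cells by Tfpi (-2.10). Of 18 matrix genes Lama4 was lower (-1.11), Timp1 was lower with 76.3% of its WT UMIs in 1 cell, and Sparcl1 was higher with 81.5% of its KO-labelled UMIs in 1 cell. Neither Timp1 (-1.10) nor Sparcl1 (0.22) was called without the mixed cells, and Mgp was called lower (-0.76). Of 9 cholesterol synthesis genes measured, 2 were called higher and 0 lower, with a median of 0.32. Fdps was among them (1.33) on 15 and 19 UMIs, but not without the mixed cells (1.11). Timp1, Sparcl1, Nr4a1, Mt1 and Mt2 were over 5 times higher in non-endothelial than in venous cells of a library, and the part of RNA from those cells was not tested.

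**Figure D5:**
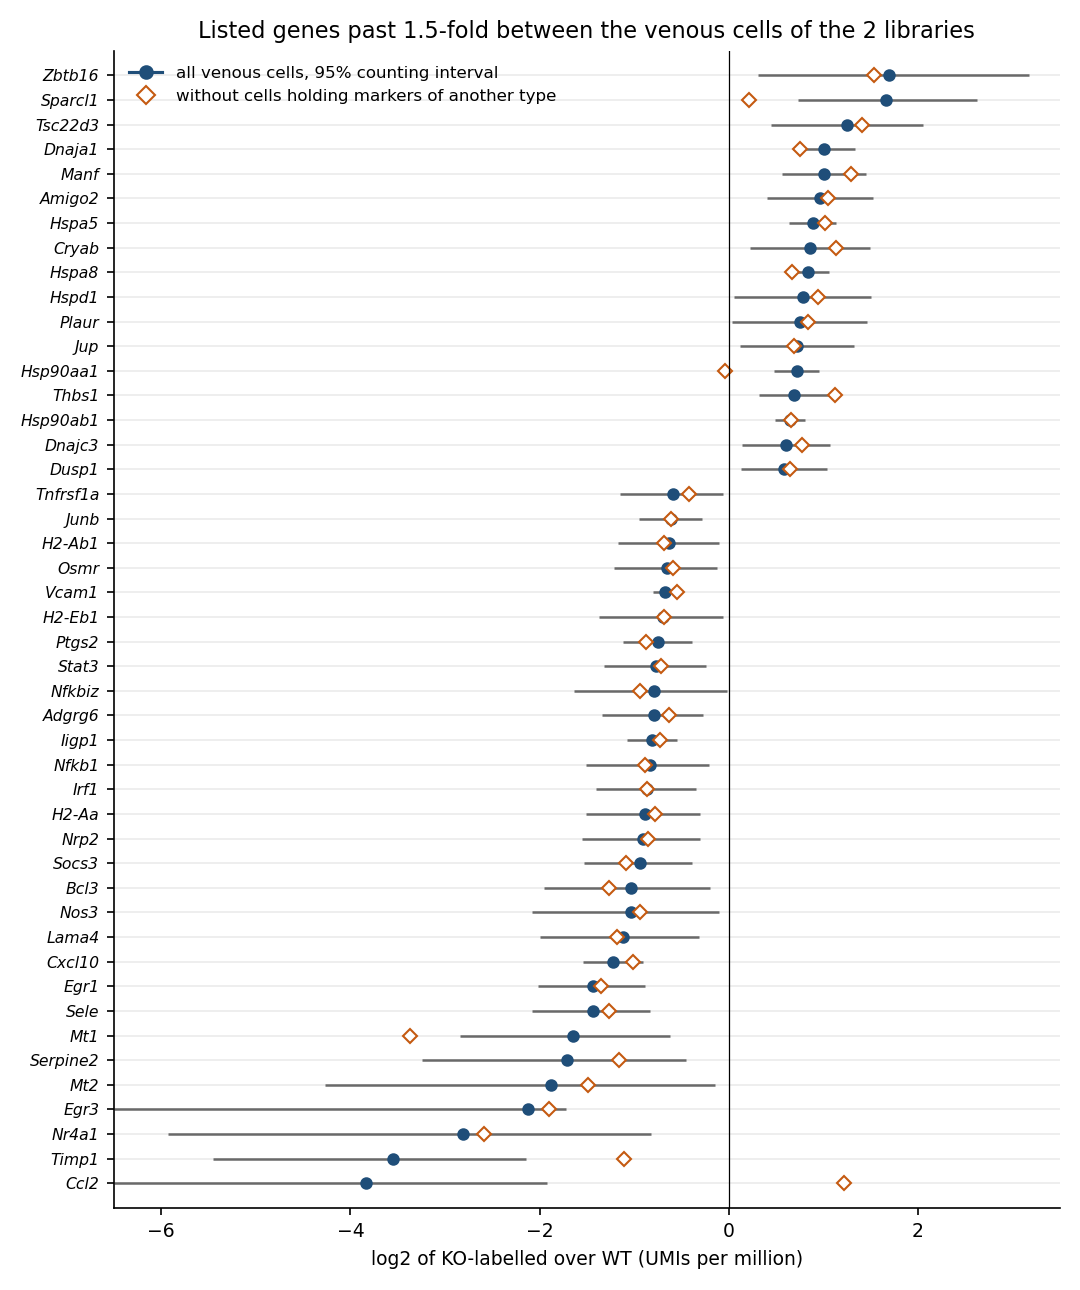
Log2 ratio of KO-labelled over WT CPM for listed genes outside cholesterol synthesis that were called higher or lower, with the 95% counting interval (grey lines, cut at the left edge of the axis) and the value without mixed cells (open diamonds). Most diamonds lie near the filled point; Hsp90aa1 moves from 0.72 to -0.04, Sparcl1 from 1.66 to 0.22 and Ccl2 from -3.84 to 1.22.

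Ranked by the bound of the interval nearest to 0, genes among the lowest in the KO-labelled library were Cmah (154 and 32.7 CPM, -2.24), which makes the sialic acid Neu5Gc, Sulf1 (109 and 20.4 CPM, -2.41), which trims heparan sulfate, Kirrel3 (267 and 93.9 CPM, -1.51), an adhesion protein, Ctnnal1 (-2.07), Cdkal1 (-2.04) and Adamtsl3 (26 and 1 UMIs, -3.71), beside Cxcl10, Egr1 and Sele. Kirrel3 was at 371 and 82.6 CPM in cells without Selp (-2.17) and at 174 and 110 CPM in cells with it (-0.66). In the WT library its level was thus higher without Selp, on 85 UMIs without and 45 with it. The KO-labelled values rest on 12 and 11 UMIs, too few to compare the parts.

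The genes highest in the KO-labelled library were led by Fam13a, at 5 and 16 UMIs with 50% of the latter in 1 cell and too few UMIs to be called without the mixed cells. Cyp26b1, which breaks down retinoic acid, had 7 and 19 UMIs (2.43, 1.12 to 3.93), and in general capillary cells 22 and 123. Serpinb1a, an inhibitor of neutrophil elastase (chr13:32842092-32851185), rested on more counts, with 103 UMIs in 49 WT and 122 UMIs in 36 KO-labelled cells, 211 and 498 CPM, a log2 ratio of 1.24 (0.85 to 1.63). It was 1.06 inside cells with Selp and 1.83 inside those without. Emc8 (1.99) and Mrpl32 (1.73) had 20 UMIs or fewer per library, and Dnaja1 and Hspa5 were described above. Scgb1a1, Hp and Cyp2f2, which are airway genes, completed the list: 1 KO-labelled cell gave 99.6%, 94.5% and 95.3% of their UMIs, and without the mixed cells the log2 ratios of Scgb1a1 and Hp were -3.46 and -0.78.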

How the data were processed

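Gene expression was measured in 2 droplet 3′ single-cell libraries of CD45.2-negative mouse lung cells, 1 per genotype. The deposited matrices hold whole-number UMI counts per gene and barcode, filtered for cells by the authors. Per the submitters' processing notes, Cell Ranger 7.0.0 and 7.1.0 and the genome build mm10 were used. The 2 libraries had 11776 and 9771 barcodes, of which 10842 and 9109 were kept, and the venous cells held 487770 and 245028 UMIs.

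UMIs were summed over venous cells and scaled to counts per 1000000 UMIs (CPM). Ratios carry exact conditional binomial and shares exact Clopper-Pearson 95% intervals, which cover counting error only. Genes needed 20 UMIs over both libraries, and a count of 0 was set to a floor of 3 UMIs. No test was possible with 1 library per genotype, and cells are not replicates. Doublets were marked with Scrublet in scanpy 1.11.5 at an expected share of 8% and kept, as the rule has no doublet filter. General capillary cells and aerocytes needed at least 3 of their marker genes, and arterial cells at least 3 arterial genes.

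Named genes were Plaur, the 10 highest and 10 lowest by the interval bound nearest 0 with at least 50 CPM in the higher library and not over 5 times higher in non-endothelial cells, the list members called, members needed for their role, and the 15 genes highest against other endothelial classes. Some named genes are not reported here. The members and lists were chosen with earlier results of these data known. Leaving out the mixed cells, leaving out the highest cell and dividing cells by Selp or Fabp4 were chosen after seeing the data. Positions are from GENCODE M21 (GRCm38), in which 32158 of 32285 gene identifiers were found, and promoters from RefSeq. Alternatives changed the cell filter, the rule, the scaling (edgeR 4.0.16 TMM among them), the depth and the gene minimum. The ratio script was tested on simulated data.

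Summed over the venous cells, markers of other cell types stood at these CPM in the WT and KO-labelled library: airway secretory 24212 and 40632 (1463 and 133 without mixed cells), AT2 (alveolar type 2) 1103 and 1710, AT1 (alveolar type 1) 51.3 and 69.4, ciliated 244 and 196, fibroblast 185 and 135, mural 2.05 and 224, mesothelial 84.1 and 0, leukocyte 12.3 and 12.2, lymphatic 4.10 and 4.08, arterial 191 and 237, general capillary 1841 and 2130, aerocyte 152 and 192, and platelet and erythroid 0 in both.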

Additional observations from a re-analysis of the deposited data

Results flagged for a closer look

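Among the named genes called in venous cells, and in classes with at least 20 UMIs of the gene, 11 had opposite signs: the KO-labelled over WT log2 ratio lay on one side of 0 in venous cells and on the other in another endothelial class, each with a counting interval that excluded equality, and none of these differences was tested. Plaur was at 0.75 in venous cells and -0.82 in aerocytes. Vcam1 was at -0.67 in venous and 1.57 in arterial cells, of which there were 20 and 23. Cxcl10 was at -1.22 in venous, 0.14 in general capillary and 2.86 in arterial cells. The arterial value rests on 0 WT and 27 KO-labelled UMIs, with the 0 set to the floor of 3 UMIs. Ccl2 was at -3.84 in venous and 1.25 in general capillary cells. Thbs1 was at 0.70 in venous cells and -1.67 in aerocytes, and Fam13a at 2.67 in venous and -0.95 in general capillary cells. Hsp90aa1 was at 0.72 in venous and -0.51 in general capillary cells. Sparcl1 was at 1.66 in venous cells, -0.67 in general capillary cells and -1.06 in aerocytes. Airway genes did so too: Scgb1a1 was at 0.75 in venous, -6.36 in general capillary, -3.59 in aerocyte and -3.61 in arterial cells, Hp at 1.46 in venous, -3.62 in general capillary and -0.58 in aerocyte cells, and Cyp2f2 at 1.45 in venous and -4.68 in general capillary cells. Egr1, at -1.43 in venous and 1.92 in arterial cells, met this on 3 and 14 arterial UMIs, under that minimum. In the capillary classes Egr1 lay on the same side as in venous cells. It was at -1.56 (-2.07 to -1.09) in general capillary cells and -0.50 (-1.01 to -0.0038) in aerocytes. With the mixed venous cells left out, Scgb1a1 (-3.45), Hp (-0.78), Hsp90aa1 (-0.04) and Ccl2 (1.22) took the sign given for the other classes. Cyp2f2 did so without the highest cell of each library (-1.38).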

How the results depend on the processing

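No paired analysis was possible because each genotype has 1 library. The counts of genes called moved with depth and thresholds. From 210, the number called higher went to 129 with at least 4 of 6 venous genes, 83 with cells thinned to 1000 UMIs, 54 at a minimum of 100 UMIs per gene, 327 at a minimum of 5 and 115 past 2-fold. From 258, the number called lower went to 102 thinned, 94 at a minimum of 100 UMIs and 152 past 2-fold. TMM scaling shifted all ratios by -0.04. Plaur was at -0.0853 when thinned. Ccl2 was at 1.46 with at least 4 venous genes, 1.02 with none of the 5 other-lineage genes, 1.22 without mixed cells and 0.58 without its highest cell. Hsp90aa1 was at -0.18 with none of the 5 other-lineage genes, -0.0142 without doublets, -0.0441 without mixed cells and -0.0139 without its highest cell. Without mixed cells Hp was at -0.78 and Scgb1a1 at -3.45, and without the highest cell Cyp2f2 was at -1.38 and Scgb1a1 at -3.02. The cause was not tested. Over the 64 named genes, 688 values under alternatives stayed within their counting interval, 67 moved and 12 changed sign. Depth limits genes with few UMIs, whose intervals are wide.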
